A study of Homo sapiens with 6 samples.

Results

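With the exception of ATP5S and ATP5L2, the genes examined here encode nuclear subunits of the mitochondrial respiratory chain and of ATP synthase. They were taken from the deposited gene table by a pattern on the gene symbol that covers NDUFA, NDUFB, NDUFC, NDUFS, NDUFV, SDH, UQCR, CYC1, COX and ATP5 names. The pattern matched 77 of 50868 genes. Of these, 36 were placed in complex I, 4 in complex II, 9 in complex III, 11 in complex IV and 17 in complex V. The 17 include ATP5S and ATP5L2, which match the pattern but are not counted as subunits. RNA had been sequenced from CUTLL1, a cell line established from a human T-ALL (acute lymphoblastic leukaemia of T cells). The shAURKB arm carried a lentiviral short hairpin RNA against AURKB, which encodes the mitotic kinase Aurora B, and the shGFP arm a lentiviral control hairpin named for GFP. Both arms went through puromycin selection and 48 h of culture, and each held 3 libraries that the series' design text calls biological replicates. Which AURKB hairpin sequence was used is not given in the sources used here. The study's title concerns the stabilisation of the MYC protein by Aurora B.

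Complex I (NADH dehydrogenase) and complex II (succinate dehydrogenase) pass electrons to coenzyme Q, complex III passes them to cytochrome c, and complex IV passes them to oxygen. Complexes I, III and IV pump protons across the inner mitochondrial membrane, and complex V, the ATP synthase, uses the gradient to make ATP. Complex II is encoded wholly in the nucleus, whereas the other complexes combine nuclear subunits with subunits encoded by mitochondrial DNA. Rapidly dividing leukaemia cells use the chain for ATP and also to regenerate the electron acceptors needed for nucleotide and aspartate synthesis.

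Library totals ran from 10446722 to 11641019 counts in the shAURKB arm and from 10154187 to 11922979 in the shGFP arm. AURKB itself averaged 39.9 ± 3.93 CPM (counts scaled to a common library depth) in shAURKB cells and 101 ± 5.1 CPM in shGFP cells (SD, n = 3 each), a log2 fold change of -1.35 ± 0.08 (SE; adjusted p = 2.54e-04, quasi-likelihood test of edgeR, as for every adjusted p of a gene that follows). MYC messenger RNA averaged 12.5 ± 4.33 CPM in shAURKB cells and 11.6 ± 1.23 CPM in shGFP cells (log2 fold change 0.12 ± 0.25, adjusted p = 0.778). The sign of the MYC value turned to -0.13 without shAURKB replicate 1. Of 14 T-ALL marker genes, 12 were tested, and the list summed to between 3192 and 3357 CPM in the shAURKB libraries and between 2939 and 3060 CPM in the shGFP libraries. Members of this list moved both ways, with 4 higher and 2 lower in shAURKB cells. The higher ones were CD3E, TRBC2, CD3D and LCK, with log2 fold changes of 0.21, 0.18, 0.17 and 0.13. The lower ones were RAG1, a recombinase of immature lymphocytes, at 15.2 ± 1.09 CPM in shAURKB cells and 53 ± 4.34 CPM in shGFP cells (log2 fold change -1.80 ± 0.09, adjusted p = 1.55e-04), and the coreceptor CD4, at 13 ± 0.633 CPM in shAURKB cells and 35.2 ± 1.5 CPM in shGFP cells (-1.43 ± 0.08, adjusted p = 1.61e-04). Fibroblast markers summed to at most 0.263 CPM in the shAURKB arm and to between 0 and 17.6 CPM in the shGFP arm. The highest of these sums was shGFP replicate 1, which held 185 reads of COL1A2 and 1 of COL1A1, and the other 4 fibroblast markers had no read in any library. Epithelial markers summed to between 0.474 and 1.05 CPM in the shAURKB arm and to between 0.582 and 9.15 CPM in the shGFP arm, where the highest was again shGFP replicate 1, with 39 reads of KRT18, 33 of KRT8 and 23 of KRT19. B-cell markers summed to between 22.8 and 27.9 CPM in shAURKB libraries and between 23.6 and 27.5 CPM in shGFP libraries, with MS4A1 and PAX5 at 0. Myeloid markers summed to at most 0.963 CPM in shAURKB and 1.07 CPM in shGFP libraries, and erythroid markers to at most 0.195 CPM in shAURKB and 0.0944 CPM in shGFP libraries.

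The respiratory chain genes were, on the whole, slightly more abundant in shAURKB cells. Together they took 0.7834%, 0.7676% and 0.7768% of all counts in shAURKB replicates 1 to 3, against 0.7042%, 0.73% and 0.6897% in shGFP replicates 1 to 3. After scaling by edgeR's TMM factors, the tested members summed to 7919 ± 87.5 CPM in shAURKB cells and 6971 ± 204 CPM in shGFP cells (SD, n = 3 each), a ratio of 1.14. All 3 shAURKB sums lay above all 3 shGFP sums. In these bulk samples, a change in the mix of cells and a change in RNA per cell cannot be told apart.

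Of the 77 members, 76 passed the filter on low counts and were tested. At an adjusted p below 0.05, 23 were higher in shAURKB cells, 1 was lower and 52 were not called. The shares were 30.3% higher and 1.32% lower, against 12.5% higher and 10.9% lower among all 14818 tested genes. Fold changes were positive for 65 members and negative for 11, with a median log2 fold change of 0.19 beside 0.00 for all tested genes. For 35 members every shAURKB library lay above every shGFP library, and for 1 every shAURKB library lay below, against 21.7% and 20.9% of all tested genes. Of the 60 members in complexes I to IV, 0 were called lower by edgeR, DESeq2 or limma-voom, and at an unadjusted p below 0.05 only SDHC was lower by edgeR and limma-voom, and 0 by DESeq2. The plot of each gene's fold change by complex shows how small most changes were: no member passed a log2 fold change of 0.63 in either direction.

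**Figure D1:**
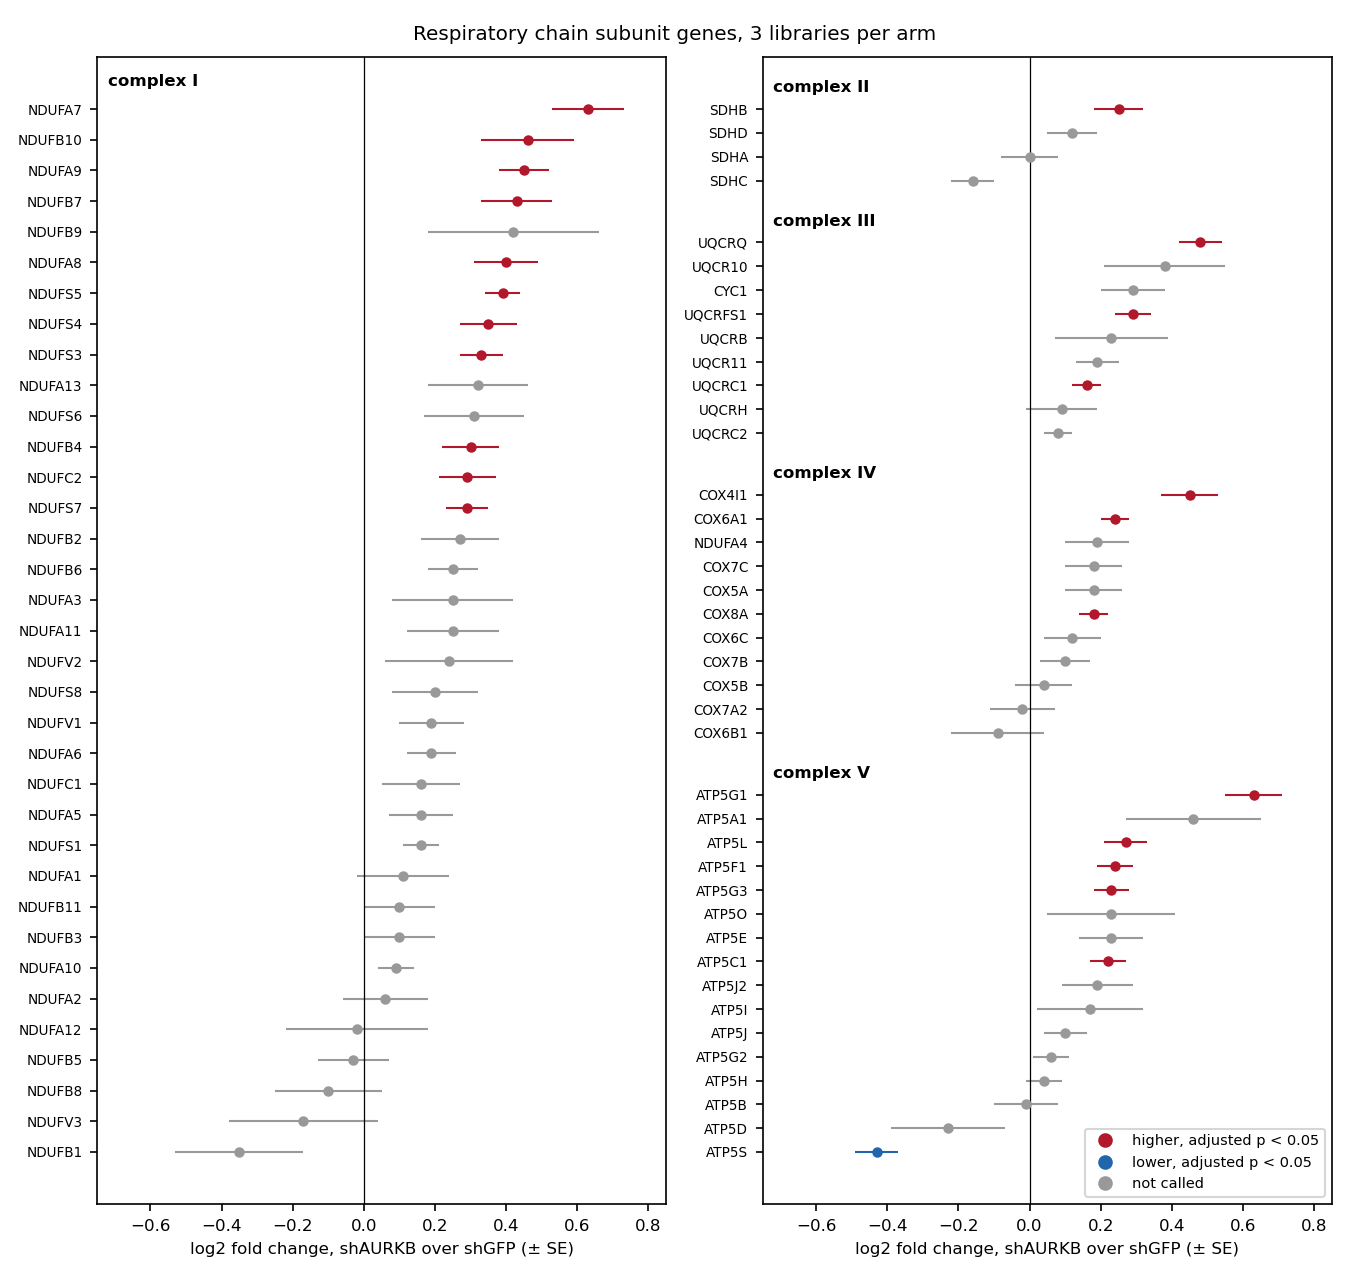
Log2 fold change of shAURKB over shGFP (x axis) for 75 of the 76 tested members, one row per gene, grouped by complex; points are edgeR estimates and bars their SE. The 23 genes in red were called higher, ATP5S in blue was called lower, and most points lie right of 0.

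Part of this tilt was shared by abundant genes in general. Of the members with a mean of at least 50 CPM, 17 of 52 were called higher (32.7%), none was called lower, and the median log2 fold change was 0.19. Among the 4832 tested genes at that level, 26% were called higher, 10.9% were called lower, 63.5% had a positive fold change and the median was 0.08. The called share of the abundant members was thus near that of abundant genes at large. Their arms were apart, with shAURKB above, in 27 of 52 members and in 37.9% of the 4832 genes. Under 50 CPM, 6 of 24 members were higher (25%) and 1 lower (4.17%), against 5.93% and 10.8% of the 9986 tested genes under 50 CPM. The levels of these sets differ. The lowest mean of a tested member was 10.8 CPM (NDUFV3), whereas tested genes reached lower, such as SDHAF4 at 3.58 CPM in shAURKB cells and 3.83 CPM in shGFP cells. Across the 76 members, fold change and mean level had a Spearman coefficient of -0.04, against 0.29 across all 14818 tested genes. These points share the same 6 libraries, and the coefficients are given as a description.

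**Figure D2:**
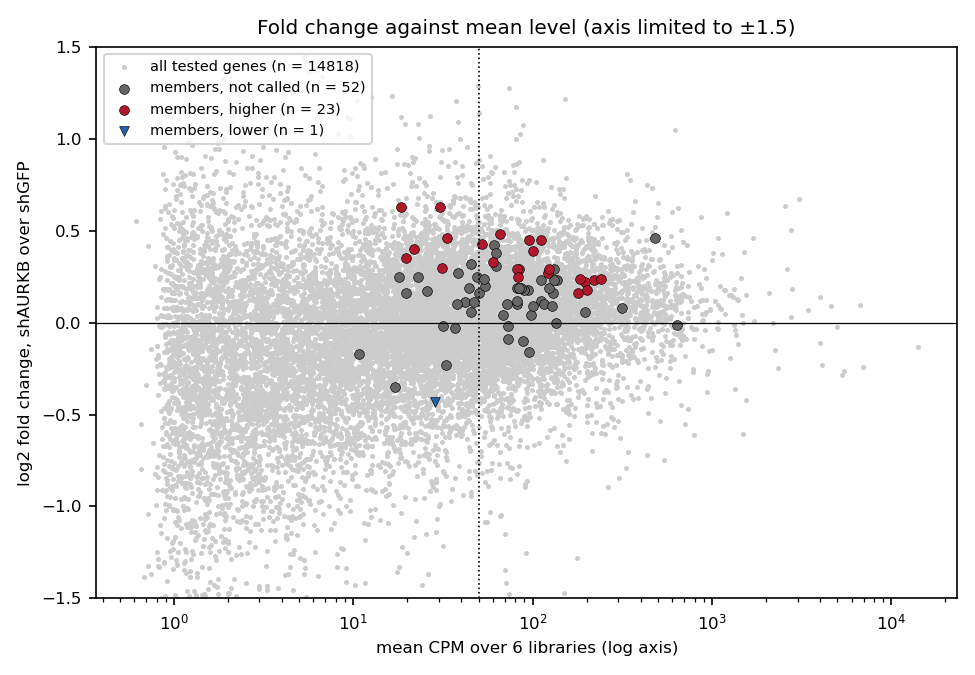
Log2 fold change of shAURKB over shGFP (y axis, limited to 1.5 either way) against mean CPM over the 6 libraries (x axis, log scale) for all 14818 tested genes in grey and the 76 tested members in colour. The dotted line marks 50 CPM; called members lie on both sides of it.

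With upper-quartile scaling, 17 members were called higher, all of them among the 23, and the median of the members was 0.13 with the median of all genes at -0.06. The same scaling turned the split over all genes from 1847 higher and 1609 lower (53.4% of calls higher) into 1325 higher and 2087 lower (38.8%). With RLE scaling the same 23 members were called higher. Of the 23, 8 were called in all 19 settings tried: NDUFA9, NDUFS3 and NDUFS5 of complex I, UQCRQ and UQCRFS1 of complex III, COX6A1 of complex IV, and ATP5F1 and ATP5G1 of complex V. With each of the 6 libraries left out in turn, 11 of the 23 kept the call every time, and so did the lower call of ATP5S. Without shGFP replicate 1, the library with reads of COL1A2 and keratins, 15 members were called higher, 14 of them among the 23.

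Sequence around the starts of the members was examined because their promoters are known to bind a small set of activators, among them NRF1, the ETS factor GABP and YY1. RefSeq promoter windows of GRCh38.p14, which run from 250 bases before to 50 bases after a gene's start, were matched for 61 of the 77 members. They were searched on both strands for CGCATGCG (core of the NRF1 site), CCGGAAGT (ETS), AAGATGGC (YY1) and CACGTG (the E-box bound by MYC with MAX). No match to one of these motifs overlapped a match to another in a member's window. The NRF1 core stood in 16.4% of the member windows and in 2.02% of all 35116 windows, which were not limited to expressed genes. The YY1 letters stood in 18% of member windows and 2.89% of all windows, the ETS letters in 14.8% and 4.14%, and the E-box in 11.5% and 7.26%. Most YY1 matches in members began after the start, from base 11 in NDUFA9 to base 39 in ATP5O. Those of ATP5F1 (-2) and ATP5J (-57) began before it. At least 1 of the motifs was present in 29 members, of which 14 were called higher and whose median log2 fold change was 0.24. None was present in 32 members, of which 6 were called higher and whose median was 0.17. By motif, 5 of 10 members with the NRF1 core were called higher, 7 of 11 with the YY1 letters, 4 of 7 with an E-box and 2 of 9 with the ETS letters. Called higher were 30.3% of the tested members, 12.5% of all tested genes and 26% of those of at least 50 CPM. The called share of all tested genes whose windows hold the same letters was not computed. The motif counts carry no test, and a match to the letters is not a binding site. The windows of 3 members called higher are shown from their first base to the start of the first annotated exon, on the plus strand, 5′ to 3′, with the motif in capitals. They are COX6A1 at chr12:120437863-120438089 and NDUFB4 at chr3:120596086-120596308, both with the NRF1 core, and COX8A at chr11:63974370-63974608, with the ETS letters on the minus strand.
COX6A1: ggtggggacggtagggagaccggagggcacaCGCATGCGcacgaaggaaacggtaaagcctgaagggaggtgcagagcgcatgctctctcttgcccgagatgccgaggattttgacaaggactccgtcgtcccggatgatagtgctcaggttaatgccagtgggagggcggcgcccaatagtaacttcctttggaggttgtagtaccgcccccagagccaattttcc
NDUFB4: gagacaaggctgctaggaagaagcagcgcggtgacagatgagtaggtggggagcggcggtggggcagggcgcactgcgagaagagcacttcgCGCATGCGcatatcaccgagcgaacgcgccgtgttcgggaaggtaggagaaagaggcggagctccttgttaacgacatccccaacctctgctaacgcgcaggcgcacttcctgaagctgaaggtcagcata
COX8A: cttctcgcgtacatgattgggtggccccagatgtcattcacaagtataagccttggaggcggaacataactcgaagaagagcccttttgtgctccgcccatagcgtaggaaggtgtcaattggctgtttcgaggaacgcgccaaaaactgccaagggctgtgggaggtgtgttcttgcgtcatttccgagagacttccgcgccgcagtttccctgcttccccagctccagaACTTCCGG
The first base of the motif lies at -219 of the RefSeq start in COX6A1, at -158 in NDUFB4 and at -19 in COX8A, where its last 2 bases fall in the first exon of GENCODE release 29. Members without a matched window included ATP5B, ATP5D, ATP5G3, ATP5J2, ATP5L2, ATP5S, COX6C, CYC1, NDUFA4, NDUFB5, NDUFB9, NDUFC2, NDUFS5, SDHC and UQCRB.

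Complex I had the most members and the most calls. Of its 36 genes, 11 were higher in shAURKB cells (30.6%), none was lower and 25 were not called. The median log2 fold change was 0.25, with a range of -0.35 to 0.63. The complex I sum was 2031, 2066 and 2040 CPM in shAURKB replicates 1 to 3, against 1770, 1792 and 1708 CPM in shGFP replicates 1 to 3, a ratio of the means of 1.16. The arms did not overlap. Core subunits, which hold the flavin, the iron-sulfur clusters and the coenzyme Q site, and accessory subunits, which surround and stabilise them, had similar shares of calls, with 2 of 7 core genes (28.6%) and 9 of 29 accessory genes (31%).

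Among core genes, NDUFS3 and NDUFS7 rose. NDUFS3 (ENSG00000213619, chr11:47565336-47584562), a subunit of the arm that leads to coenzyme Q, had 63.5, 66.9 and 71.3 CPM in shAURKB replicates 1 to 3, against 54.6, 52.4 and 53.2 CPM in shGFP replicates 1 to 3. The lowest shAURKB value stood clear of the highest shGFP value, and the log2 fold change was 0.33 ± 0.06 (SE; adjusted p = 0.0101). NDUFS7, which carries the last iron-sulfur cluster before coenzyme Q, had 86.2, 94.4 and 88.3 CPM in shAURKB cells against 75.9, 73 and 71.2 CPM in shGFP cells. Its arms did not overlap either (log2 fold change 0.29 ± 0.06, adjusted p = 0.0123). NDUFS1, the large iron-sulfur subunit, averaged 138 ± 3.62 CPM in shAURKB cells and 123 ± 5.13 CPM in shGFP cells without passing the test (0.16 ± 0.05, adjusted p = 0.0516). NDUFS8, NDUFV1 and NDUFV2, also core genes, had log2 values of 0.20, 0.19 and 0.24, overlapping arms and no call.

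The accessory genes gave the larger values. NDUFA9 (ENSG00000139180, chr12:4649095-4694317), which sits at the junction of the arms of complex I, had 107, 108 and 117 CPM in shAURKB replicates 1 to 3, against 77.9, 76.4 and 88.4 CPM in shGFP replicates 1 to 3. Every shAURKB library was above every shGFP library, with a log2 fold change of 0.45 ± 0.07 (adjusted p = 5.97e-03). NDUFS5 (ENSG00000168653, chr1:39026318-39034636), a subunit on the intermembrane-space face, had 114, 118 and 111 CPM in shAURKB libraries against 88.1, 83.2 and 90 CPM in shGFP libraries. The arms stood well apart, and the change was 0.39 ± 0.05 (adjusted p = 3.04e-03), the smallest adjusted p in complex I. NDUFB7, NDUFB10 and NDUFA8, which also face the intermembrane space, rose by 0.43, 0.46 and 0.40 on the log2 scale (adjusted p = 0.0211, 0.0458 and 0.0221). NDUFB10 was uneven within the shAURKB arm, with 45.2, 38.5 and 31.2 CPM against 27.2, 27.8 and 28.8 CPM in shGFP cells, yet its arms did not overlap. NDUFS4, an accessory subunit of the NADH-binding arm whose loss causes Leigh syndrome, averaged 22.1 ± 0.92 CPM in shAURKB cells and 17.4 ± 1.22 CPM in shGFP cells (0.35 ± 0.08, adjusted p = 0.0273). NDUFB4 and NDUFC2 of the membrane arm rose by 0.30 and 0.29 (adjusted p = 0.0387 and 0.0319).

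Of the 11 complex I calls, 6 were lost when 1 library or another was left out. NDUFB10 lost its call without any 1 of the libraries other than shAURKB replicate 3 (adjusted p 0.0938 to 0.116), and NDUFB4 without any 1 other than shGFP replicate 1 (0.0674 to 0.101). NDUFC2 lost it without shAURKB replicate 1 or 2 or shGFP replicate 1 or 3 (0.0767 to 0.0921). NDUFS4 lost it without shAURKB replicate 1 or 3 or shGFP replicate 1 or 3 (0.0728 to 0.08). NDUFA8 lost it without shAURKB replicate 2 or shGFP replicate 1 or 2 (0.0554 to 0.0678), and NDUFB7 without replicate 2 of either arm (0.0551 to 0.0598). NDUFA7, NDUFA9, NDUFS3, NDUFS5 and NDUFS7 kept the call with each library left out. At the other end, NDUFB1, a small membrane-arm subunit chosen for mention after its value was seen, had the lowest log2 value of complex I. It averaged 14.9 ± 2.72 CPM in shAURKB cells and 19.1 ± 3.38 CPM in shGFP cells, with overlapping arms (-0.35 ± 0.18, adjusted p = 0.204).

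NDUFA7 had one of the largest log2 fold changes of all members, and it overlaps a second annotated gene on the same strand. NDUFA7 (ENSG00000267855, chr19:8308768-8321396 on the minus strand) had 229, 250 and 245 counts in shAURKB replicates 1 to 3, against 143, 151 and 187 counts in shGFP replicates 1 to 3 (log2 fold change 0.63 ± 0.10, adjusted p = 6.94e-03). A read-through locus on the same strand, which covers NDUFA7 and a neighbouring gene, had 103, 24 and 0 counts in shAURKB cells and 85, 64 and 127 counts in shGFP cells. The sums of both, 332, 274 and 245 in shAURKB cells and 228, 215 and 314 in shGFP cells, overlapped between the arms. With read-through counts added, a setting chosen after the data were seen, the log2 fold change of NDUFA7 was 0.21 ± 0.12 (adjusted p = 0.255), and its call was lost. The summed count also holds any reads of the partner gene.

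Another 4 complex I genes were picked because their read-through locus had many counts. From which gene the reads of a locus came was not tested. NDUFA11, a membrane-arm subunit, had 540, 491 and 666 counts in shAURKB cells against 514, 442 and 508 in shGFP cells, and its locus 447, 413 and 233 against 319, 302 and 411. The NDUFA11 sums, 987, 904 and 899 against 833, 744 and 919, gave 0.20 ± 0.05 (adjusted p = 0.0356) where the gene alone gave 0.25 ± 0.13 (adjusted p = 0.204). For NDUFA13, also known as GRIM-19, the value of 0.32 ± 0.14 for the gene alone (adjusted p = 0.147) became 0.02 ± 0.07 (adjusted p = 0.845). The sign of NDUFB8, a membrane-arm subunit often used as a blot marker of complex I, turned. The log2 fold change of NDUFB8 alone was -0.10 ± 0.15 (adjusted p = 0.665), and with its locus, at 1329, 746 and 413 counts in shAURKB cells and 465, 278 and 710 in shGFP cells, 0.26 ± 0.10 (adjusted p = 0.107). NDUFV2, a core flavoprotein subunit, had a locus with counts in some libraries and almost none in others, at 0, 237 and 1 counts in shAURKB cells and 136, 0 and 200 in shGFP cells. The NDUFV2 sums of 740, 729 and 656 in shAURKB cells and 635, 630 and 679 in shGFP cells gave 0.16 ± 0.07 (adjusted p = 0.139). Over all members the number called higher stayed at 23 with these counts added, 22 of them shared.

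**Figure D3:**
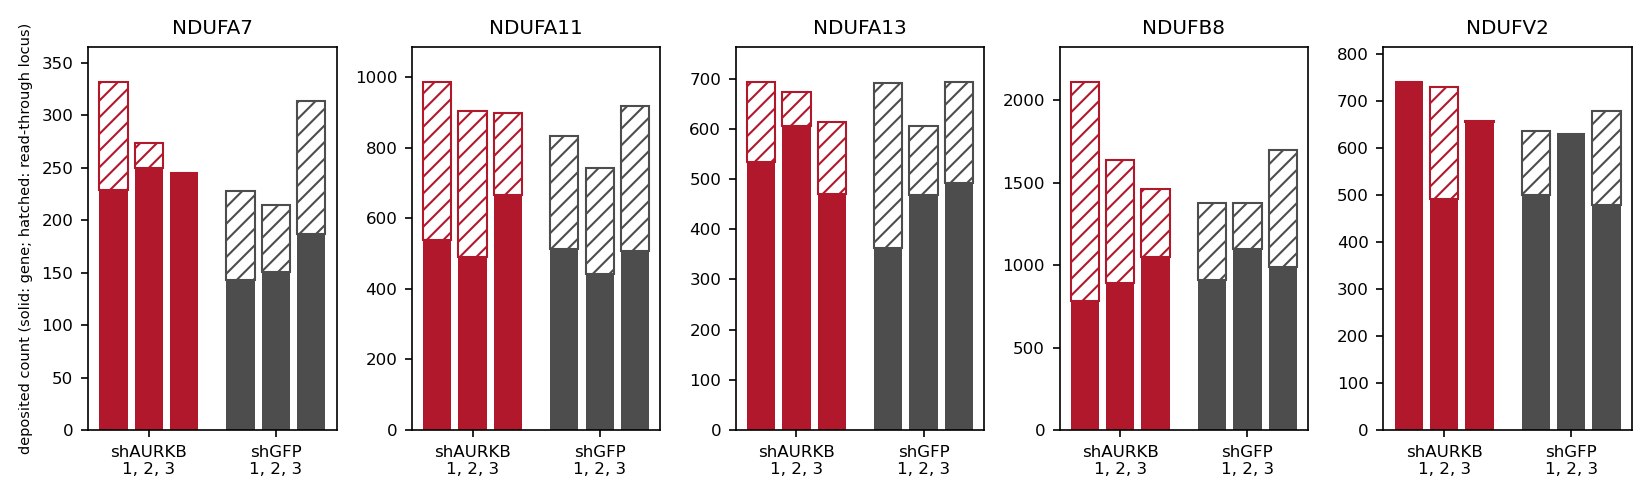
Deposited counts per library (y axis, unscaled) for 5 complex I genes, shAURKB replicates 1 to 3 in red and shGFP replicates 1 to 3 in grey; solid bars are the gene and hatched bars its same-strand read-through locus. The hatched part varies between replicates of an arm, from 0 to 127 counts for NDUFA7 and from 278 to 1329 for NDUFB8.

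Complex II, the smallest set, had the lowest median log2 fold change (0.06), though no test between complexes was made. The complex II sum was 398, 416 and 385 CPM in shAURKB replicates 1 to 3, against 382, 407 and 378 CPM in shGFP replicates 1 to 3, and the arms overlapped (ratio 1.03). SDHB, the iron-sulfur subunit, was higher in shAURKB cells at 92.9, 85.1 and 91.1 CPM, against 69.7, 79.8 and 76.8 CPM in shGFP cells. Its arms did not overlap and the log2 fold change was 0.25 ± 0.07 (adjusted p = 0.0376), but the call was lost without any 1 of the libraries other than shGFP replicate 2 (adjusted p 0.0511 to 0.106). The other genes were not called, and all were chosen for mention after their values were seen. SDHA, the flavoprotein that oxidises succinate, averaged 135 ± 11.3 CPM in shAURKB cells and 134 ± 11.3 CPM in shGFP cells (0.00 ± 0.08). SDHD and SDHC, the membrane anchors, had log2 values of 0.12 ± 0.07 and -0.16 ± 0.06 (adjusted p = 0.265 and 0.114), both with overlapping arms.

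All 9 genes of complex III had a positive fold change in every library scaling tried, and 7 had arms that did not overlap. The complex III sum was 1331, 1321 and 1263 CPM in shAURKB replicates 1 to 3, against 1161, 1111 and 1147 CPM in shGFP replicates 1 to 3, a ratio of 1.15. At the adjusted threshold 3 genes rose (33.3%), and the median of the 9 was 0.23. UQCRQ (ENSG00000164405, chr5:132866560-132868031), a small subunit also known as ubiquinone-binding protein QP-C, had 80.1, 77 and 73.2 CPM in shAURKB libraries against 57.3, 55.9 and 52.5 CPM in shGFP libraries. The arms were far apart relative to their spread, with a log2 fold change of 0.48 ± 0.06 (adjusted p = 2.77e-03). UQCRFS1 (ENSG00000169021, chr19:29205321-29213541), the Rieske iron-sulfur protein that hands electrons to cytochrome c1, had 132, 141 and 136 CPM in shAURKB cells against 114, 108 and 113 CPM in shGFP cells. It rose by 0.29 ± 0.05 (adjusted p = 6.65e-03). UQCRC1, a large core protein of the matrix side, averaged 188 ± 6.17 CPM in shAURKB cells and 168 ± 4.07 CPM in shGFP cells (0.16 ± 0.04, adjusted p = 0.0356), and lost its call with any 1 of the 6 libraries left out (0.0546 to 0.0977). CYC1, cytochrome c1 itself, averaged 145 ± 14.2 CPM in shAURKB cells and 119 ± 11.7 CPM in shGFP cells, had arms that did not overlap and was not called (0.29 ± 0.09, adjusted p = 0.0703).

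Complex IV counted 10 COX genes and NDUFA4, which was named for complex I but is a subunit of cytochrome c oxidase. The sum was 1350, 1349 and 1307 CPM in shAURKB replicates 1 to 3, against 1171, 1211 and 1188 CPM in shGFP replicates 1 to 3, without overlap (ratio 1.12). Of the 11 genes, 3 rose (27.3%), none fell, and the median was 0.18. COX4I1 (ENSG00000131143, chr16:85798633-85807044), the subunit through which ATP regulates the enzyme, had 135, 137 and 113 CPM in shAURKB cells against 96.4, 95.4 and 89.5 CPM in shGFP cells. Replicate 3 was the lowest of the shAURKB arm and still above all shGFP libraries, and the log2 fold change was 0.45 ± 0.08 (adjusted p = 9.28e-03). COX6A1 (ENSG00000111775, chr12:120438090-120440742), the ubiquitous form of subunit VIa, had 253, 269 and 260 CPM in shAURKB cells against 216, 218 and 231 CPM in shGFP cells (0.24 ± 0.04, adjusted p = 9.45e-03). COX8A, the ubiquitous form of the smallest subunit, had 212, 216 and 208 CPM in shAURKB cells against 188, 183 and 192 CPM in shGFP cells (0.18 ± 0.04, adjusted p = 0.0167). Its arms did not overlap, but the call was lost without shAURKB replicate 2 or shGFP replicate 1 or 2 (0.0524 to 0.0553). COX5B, COX7A2 and COX6B1 had log2 values of 0.04, -0.02 and -0.09 and were not called, and neither was NDUFA4 (0.19 ± 0.09, adjusted p = 0.172). Of the tissue-restricted isoforms, COX4I2, COX6A2, COX7B2 and COX8C had a count of 0 in all 6 libraries, which allows up to 3 counts in each.

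**Figure D4:**
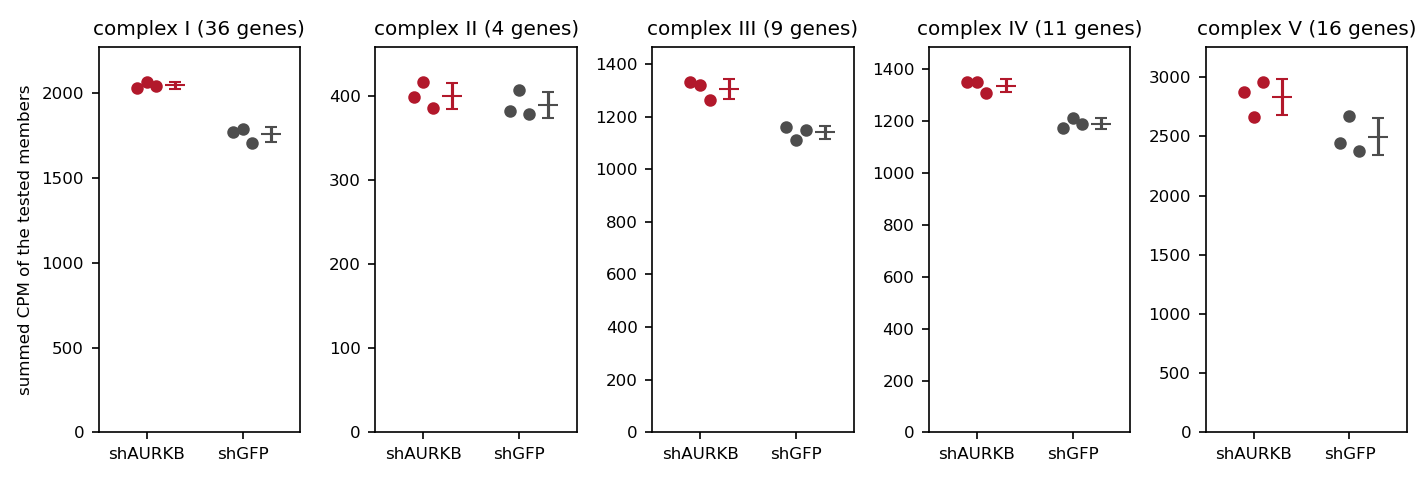
Summed TMM-scaled CPM of the tested members of each complex (y axis, from 0) in the 3 shAURKB and 3 shGFP libraries; points are libraries, and the bars beside them the mean and SD. The shAURKB sums lie above the shGFP sums in complexes I, III and IV, and the arms overlap in complexes II and V.

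In complex V, 5 of 16 tested genes rose (31.2%), 1 fell and the median was 0.20. The sum was 2873, 2667 and 2958 CPM in shAURKB replicates 1 to 3, against 2441, 2673 and 2373 CPM in shGFP replicates 1 to 3 (ratio 1.13). The arms overlapped by a narrow margin, since shAURKB replicate 2 lay just under shGFP replicate 2. The largest parts of the sum came from ATP5B and ATP5A1, genes of the catalytic head. ATP5A1, the alpha subunit, had 597, 407 and 672 CPM in shAURKB cells against 392, 482 and 346 CPM in shGFP cells, so that shAURKB replicate 2 fell below shGFP replicate 2. ATP5A1 was not called (log2 fold change 0.46 ± 0.19, adjusted p = 0.136), but was called without shAURKB replicate 2 (0.65, adjusted p = 0.032) and by DESeq2 (0.46, adjusted p = 0.0468). ATP5B, the beta subunit that binds and makes ATP, averaged 639 ± 22.8 CPM in shAURKB cells and 643 ± 88.2 CPM in shGFP cells (-0.01 ± 0.09, adjusted p = 0.96). ATP5A1 and ATP5B were chosen for mention after their values were seen.

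The c ring of the synthase, which rotates as protons pass, is built from a single mature protein made by 3 genes. ATP5G1 (ENSG00000159199, chr17:48892765-48895871) had 36.7, 37.2 and 36.5 CPM in shAURKB cells against 21.5, 24.5 and 25.4 CPM in shGFP cells. The shAURKB replicates were almost equal and far above the shGFP replicates, with a log2 fold change of 0.63 ± 0.08 (adjusted p = 2.66e-03). ATP5G3 had 241, 236 and 234 CPM in shAURKB cells against 199, 215 and 191 CPM in shGFP cells (0.23 ± 0.05, adjusted p = 0.0173), a call lost without replicate 1 of either arm (0.0539 and 0.0544). ATP5G2 was not called, at 199 ± 10.2 CPM in shAURKB cells and 191 ± 1.5 CPM in shGFP cells (0.06 ± 0.05, adjusted p = 0.363). Deposited FPKM are read fragments scaled by library depth and by a length per gene. ATP5G1 was the lowest of these genes, at 7.8 ± 0.0879 FPKM in shAURKB cells and 5.23 ± 0.437 FPKM in shGFP cells. ATP5G3 stood at 28.3 ± 0.431 FPKM in shAURKB cells and 24.9 ± 1.51 FPKM in shGFP cells, and ATP5G2 at 27 ± 1.41 and 26.8 ± 0.23 FPKM in shAURKB and shGFP cells.

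Of the stalks and the membrane part, ATP5F1, ATP5C1 and ATP5L rose. ATP5F1 (ENSG00000116459, chr1:111448864-111462773), subunit b of the peripheral stalk, had 201, 198 and 198 CPM in shAURKB cells against 162, 165 and 177 CPM in shGFP cells. The arms did not overlap (log2 fold change 0.24 ± 0.05, adjusted p = 0.0106). ATP5C1, the gamma subunit that turns inside the head, averaged 210 ± 5.92 CPM in shAURKB cells and 180 ± 7.69 CPM in shGFP cells (0.22 ± 0.05, adjusted p = 0.0156), and its adjusted p was 0.0501 when shAURKB replicate 1 was left out. ATP5L, subunit g, averaged 134 ± 8.95 CPM in shAURKB cells and 111 ± 2.14 CPM in shGFP cells (0.27 ± 0.06, adjusted p = 0.017), a call lost without shAURKB replicate 3 or shGFP replicate 1 or 3 (0.0531 to 0.0535). The other genes of the peripheral stalk and membrane part were not called, and their log2 values ran from 0.04 for ATP5H to 0.23 for ATP5O.

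Among the ATP5 symbols are ATP5S and ATP5L2, which are not counted as subunits of the synthase. ATP5S (ENSG00000125375, chr14:50312326-50335558), also known as coupling factor B and now named as a homologue of a complex I assembly factor, had 24.3, 24.3 and 24.8 CPM in shAURKB cells against 32.2, 34.3 and 32.3 CPM in shGFP cells. Every shAURKB library was below every shGFP library (log2 fold change -0.43 ± 0.06, adjusted p = 5.10e-03), and ATP5S was the only member called lower. Without ATP5S and ATP5L2, 0 members were called lower. ATP5L2, a copy of ATP5L, was at 1, 0 and 1 counts in shAURKB cells and 0, 1 and 0 counts in shGFP cells, and was not tested.

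Levels per length spanned a wide range. COX8A was the highest member, at 410 ± 8.41 FPKM in shAURKB cells and 376 ± 9.03 FPKM in shGFP cells, followed by NDUFS5 at 178 ± 5.62 and 141 ± 5.75 FPKM in shAURKB and shGFP cells. NDUFV3, a small accessory subunit of the NADH-binding arm, was the lowest of the tested members, at 1.32 ± 0.3 FPKM in shAURKB cells and 1.54 ± 0.323 FPKM in shGFP cells, and was not called (-0.17 ± 0.21, adjusted p = 0.61). Over the 6 libraries, the median member averaged 8.82 FPKM in complex I, 11.8 in complex II and 35.6 in complex III. The value was 31.3 FPKM in complex IV and 24.3 FPKM in complex V. The median coefficient of variation between replicates of the members, at all levels, was 6.51% in shAURKB cells and 6.89% in shGFP cells. For all tested genes of at least 50 CPM it was 4.28% in shAURKB cells and 4.37% in shGFP cells. In 9 members it passed 20% in at least 1 arm. Among these were NDUFB9 in shGFP cells (36.2%), NDUFA12 in shGFP cells (29.1%) and ATP5A1 in shAURKB cells (24.5%).

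How reads were assigned bears on many of these genes. In GENCODE release 29, 23 members overlap another gene on the same strand, 39 one on the opposite strand and 46 either kind, and the strand setting of the counting is not given in the sources used here. For 13 members, the called genes NDUFA7, NDUFS3 and ATP5S among them, an opposite-strand gene held more counts than the member. Pseudogenes named after the member were present for 42 members. Their counts were largest relative to the member for SDHD (30.1%), SDHA (22.4%), UQCRFS1 (22.4%), NDUFV2 (16.2%) and COX6A1 (12.7%). With the copies' counts added, a setting chosen after the data were seen, the same 23 members were called higher, UQCRFS1 at 0.29 ± 0.05 (adjusted p = 5.86e-03) and COX6A1 at 0.24 ± 0.04 (adjusted p = 7.15e-03).

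Subunits encoded by mitochondrial DNA, which join the nuclear subunits in complexes I, III, IV and V, showed more falls than rises. Of the 13 such genes, 2 were higher in shAURKB cells and 8 lower, and their median log2 fold change was -0.13. Among all tested genes of at least 50 CPM, 26% were higher and 10.9% lower, with a median of 0.08. MT-ND2 of complex I averaged 3249 ± 40.3 CPM in shAURKB cells and 2291 ± 49.7 CPM in shGFP cells (0.50 ± 0.03, adjusted p = 1.55e-04). MT-CO2 of complex IV averaged 4762 ± 104 CPM in shAURKB cells and 5790 ± 133 CPM in shGFP cells (-0.28 ± 0.03, adjusted p = 1.26e-03). It was called in 17 of 18 alternative settings, but not on log2(FPKM + 1) with no minimum (adjusted p = 0.11, limma-trend). The lower calls of MT-CO1, MT-CO3 and MT-CYB were also made in 17 of 18. The median log2 fold change was 0.25 for nuclear and -0.11 for mitochondrial genes in complex I, 0.23 and -0.23 in complex III, 0.18 and -0.26 in complex IV, and 0.20 and -0.04 in complex V. No test of the difference between the genomes was made.

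**Figure D5:**
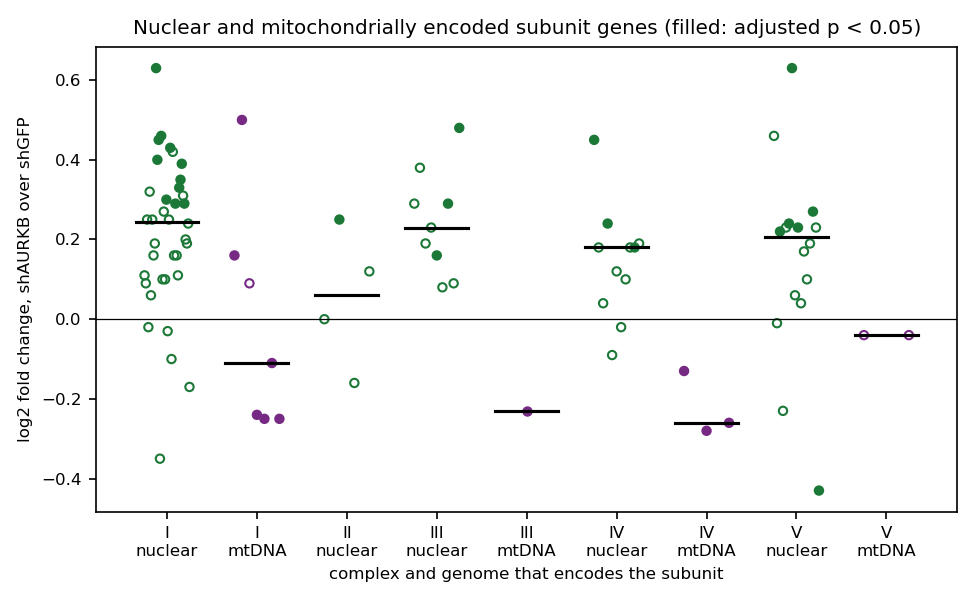
Log2 fold change of shAURKB over shGFP (y axis) for nuclear genes (green) and genes of mitochondrial DNA (purple) in each complex; each point is a gene, filled where called, and black lines are medians. In complexes I, III, IV and V the nuclear median is above 0 and the mitochondrial median below 0.

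Genes that serve the chain without matching the symbol pattern were described from lists, whose counts stand beside 12.5% higher and 10.9% lower among all tested genes, or 26% and 10.9% among those of at least 50 CPM. Of 53 tested assembly factors, 11 rose and 1 fell (median 0.12), with most calls in the list for complex IV (7 higher and 1 lower of 25). HIGD1A, a hypoxia-induced protein that associates with complexes III and IV, had 93.7, 107 and 113 CPM in shAURKB cells against 43.3, 42.3 and 43.9 CPM in shGFP cells. It rose more than any member, by 1.28 ± 0.08 (adjusted p = 2.45e-04). COA5, a complex IV assembly factor, averaged 29.6 ± 2.42 CPM in shAURKB cells and 37.6 ± 2.72 CPM in shGFP cells (-0.35 ± 0.09, adjusted p = 0.0327), and its adjusted p was 0.0686 to 0.0878 without shAURKB replicate 1 or 2 or shGFP replicate 1 or 2. C17orf89, an assembly factor of complex I, rose by 0.45 ± 0.09 (adjusted p = 0.0128), UQCC3 of complex III by 0.30 ± 0.08 (adjusted p = 0.0347) and TMEM70 of complex V by 0.24 ± 0.07 (adjusted p = 0.0394). UQCC3 lost its call with any 1 library left out, and TMEM70 without any 1 other than shAURKB replicate 1. In the list for complex II none of the 4 genes was called, and SDHAF2, which attaches the flavin to SDHA, had the smallest p (0.39 ± 0.13, adjusted p = 0.0702).

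Of 6 further subunits and carriers outside the pattern, 2 rose. CYCS, the cytochrome c that carries electrons between complexes III and IV, had 271, 225 and 260 CPM in shAURKB cells against 177, 198 and 182 CPM in shGFP cells, without overlap (0.44 ± 0.08, adjusted p = 8.39e-03). Of 8 tested regulators of mitochondrial gene expression, 4 rose and none fell. ESRRA, a nuclear receptor that binds many respiratory gene promoters, had 23.6, 24.4 and 26.9 CPM in shAURKB cells against 16.8, 18.4 and 18.6 CPM in shGFP cells (0.47 ± 0.09, adjusted p = 9.59e-03). The others were PPRC1, CREB1 and PPARGC1B. ESRRA and PPRC1 were called in all 18 alternatives, CREB1 in 10 of 18 (adjusted p up to 0.137) and PPARGC1B in 5 of 18 (up to 0.211). PPARGC1A had no count in any library. NRF1, GABPA and YY1, whose motif letters were searched above, were not called (adjusted p = 0.584, 0.917 and 0.334). Among 17 genes that copy or express mitochondrial DNA, 5 rose and none fell, led by SLIRP, which stabilises mitochondrial messenger RNA (0.55 ± 0.11, adjusted p = 0.0114).

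The pathways that feed electrons to the chain were described in the same way. Of 13 genes of the citric acid cycle, SDH genes left out, 4 rose and none fell (median 0.14), with IDH3G, a subunit of isocitrate dehydrogenase, at 0.39 ± 0.07 (adjusted p = 8.05e-03). Of 11 tested genes of the pyruvate dehydrogenase system, 2 rose and 1 fell (median -0.08). DLAT, the acetyltransferase of the complex, rose by 0.33 ± 0.07 (adjusted p = 0.0158), and its adjusted p was 0.0501 when shAURKB replicate 3 was left out and 0.0543 when shGFP replicate 1 was. PDK1, the kinase that switches the complex off, averaged 35.8 ± 0.727 CPM in shAURKB cells and 49.9 ± 1.06 CPM in shGFP cells (-0.48 ± 0.06, adjusted p = 2.13e-03). Of 13 genes of coenzyme Q synthesis, 1 rose, PDSS1, which makes the isoprenoid tail (0.37 ± 0.10, adjusted p = 0.0435), a call lost with any 1 library left out (0.0514 to 0.115).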

How the data were processed

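RNA from 6 CUTLL1 cultures, 3 per arm, was analysed; groups and replicate numbers come from the sample titles. The authors deposited whole-number read counts and FPKM for 50868 Ensembl genes, per the file headers. HISAT2 2.0.4, StringTie 1.3.0, edgeR and GRCh38 (hg38) are named per the submitters' processing notes; the sources used here give neither their roles nor the strand setting. All 77 members matched GENCODE release 29 by identifier, 75 with the identical position.

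Genes passing filterByExpr (minimum count 10, minimum total 15; 14818 genes) were scaled by TMM (factors 0.9789 to 1.02) and the arms compared by edgeR 4.0.16 (R 4.3.3) with its two-sided quasi-likelihood test. P-values were adjusted after Benjamini and Hochberg over the whole tested table, and calls made below 0.05. CPM values are TMM-scaled, marker sums included. An SE is the log2 fold change divided by the square root of the test's F. The biological coefficient of variation was 0.127. Chi-square per degree of freedom between replicates was 6.92 to 7.91, so all 6 count as separate libraries. The test was tried on simulated counts first. Limits from counts of 0 cover counting error only.

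The fit was repeated with DESeq2 1.42.0, with limma-voom (limma 3.58.1), with upper-quartile or RLE scaling, without the filter, with a filter of 1 CPM in 3 libraries, with a block for the replicate number, and without each library. For the deposited FPKM, log2(FPKM + 1) was fitted with limma-trend where 3 libraries reached 0.5 FPKM, then with a pseudocount of 0.1, and then with no minimum. Adding read-through or pseudogene counts was chosen after seeing the data. A member is not reported by name here, but stays in the counts and sums. The members, lists and tests were chosen with earlier results of these data known. Named genes are AURKB and MYC, called members, the 2 highest and 2 lowest in FPKM, untested members, and per other list the called gene with the largest change in each direction or, with none, the smallest p. Genes named beyond this rule (CYC1, NDUFS1, COL1A2, RAG1, CD4 and others) were chosen after their values were seen.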

Additional observations from a re-analysis of the deposited data

How the results depend on the processing

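The number of members called higher, 23, was 13 with the replicate number as a block, 9 on log2(FPKM + 1) with no minimum, and 15 to 20 with a library left out (lowest without shGFP replicate 1). The number called lower, 1, was 0 on FPKM with no minimum, and 0 without ATP5S and ATP5L2. In complex I the 11 calls became 6 with the block, 7 on log2(FPKM + 1), 7 on log2(FPKM + 0.1), 4 on FPKM with no minimum and 6 to 9 with a library left out. The 1 call in complex II was 0 with upper-quartile scaling, with no filter on low counts, with the block and in all 3 FPKM settings, and 0 to 1 with a library left out. Complex III had 2 higher calls with any library left out. Complex IV had 2 to 4 with a library left out and 1 on FPKM with no minimum. In complex V the 5 higher calls became 3 with the block, 2 on FPKM with no minimum and 3 to 6 with a library left out, and the lower call became 0 on FPKM with no minimum. Over all genes, 914 were higher on FPKM with no minimum, and 1027 were lower with the block and 998 to 1056 with a library left out. DESeq2 called 22 members higher and limma-voom 23.

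Values near 0 changed sign. ATP5B was 0.00 by limma-voom and with no filter, and -0.07 to 0.11 with a library left out. MYC ran from -0.13 (without shAURKB replicate 1) to 0.36. NDUFB8 was -0.23 to 0.03 with a library left out and 0.26 with read-through counts. SDHA was -0.05 with upper-quartile scaling, 0.00 with the 1 CPM filter, -0.04, -0.05 and -0.04 on the FPKM scales, -0.01 with pseudogene counts and -0.06 to 0.07 with a library left out. Apart from fits with fewer samples, the cause of these changes was not tested.

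Same-numbered libraries of the arms did not deviate together (correlations -0.089, -0.031 and -0.037), so the numbers are not read as pairs. At this depth ATP5L2, with no more than 1 count in a library, could not be tested.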
